A study of Mus musculus with 11 samples.

Results

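Short-chain fatty acids are made in the colon when bacteria ferment fibre, and 9 genes for proteins that sense or carry them, or work beside those that do, were followed in the colon mucosa of mice fed inulin, a fermentable fructan. They were chosen by name, as the probe sets of an expression array that carry 1 gene symbol from the list Ffar2, Ffar3, Ffar4, Hcar2, Slc16a1, Slc16a3, Slc5a8, Slc26a3 and Bsg. All 9 were found among 18820 measured genes, each with 1 probe set. For 10 days, 5 control mice were kept on a low-fat diet and 6 inulin mice on the same diet with 10% of its weight as inulin in place of corn starch. All were male C57BL/6J mice of 12 weeks that had spent 2 weeks on the control diet beforehand. Per the treatment protocol they were killed 4 h after a meal of 1 g that followed an overnight fast. The design text of the series says instead that colon was taken after an overnight fast, and the protocol is followed here. RNA came from scrapings of the colon mucosa, 1 array per mouse, and levels are log2 array values, on which a step of 1 is a doubling.

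Acetate, propionate and butyrate enter colonocytes at the luminal membrane, in part with sodium or protons through monocarboxylate transporters, and butyrate is the main fuel of these cells. What is not burnt leaves across the basolateral membrane towards the blood. The free fatty acid receptors are G protein-coupled receptors of enteroendocrine, epithelial and immune cells. Ffar2 and Ffar3 bind these short-chain acids from outside, and Ffar4 binds long-chain ones.

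Scrapings hold more than epithelium. Genes that mark colonocytes were at a mean of 11.56 to 11.71 in control and 11.70 to 11.91 in inulin mice, far above the upper quartile of all probe sets (7.73), so the labelled tissue was present. Fat cell markers ran from 5.64 to 6.18 in control and from 5.82 to 8.17 in inulin mice, with 13 of 13 higher on average under inulin. Pancreatic markers were highest in inulin 3 (10.10) and lay between 5.40 and 7.79 elsewhere. Homeobox genes of the distal colon lay between 6.94 and 7.97 in control and between 6.36 and 7.26 in inulin mice, with 5 of 5 lower on average. Other lists also lay to 1 side. Macrophage (10 of 10), fibroblast (7 of 7) and endothelial markers (6 of 6) were higher on average under inulin. Of the stem and progenitor markers 0 of 9 were higher, and of the tuft cell markers 0 of 9. Tuft cell markers ran from 6.13 to 6.40 in control and from 5.76 to 6.05 in inulin mice. The part of these tissues and cell types in the differences below was not tested unless a value is given beside them. In RNA from a mixed tissue, fewer cells of a type and less RNA per cell cannot be told apart.

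None of the 9 members passed the test between the diets at an adjusted p under 0.05 in limma over all genes, where 17 of 18820 genes (0.0903%) passed, 0.0531% higher and 0.0372% lower. At an unadjusted p under 0.05 there was 1 member, Bsg, against 13.5% of all genes. In 0 of the 9 did the diets fail to overlap, against 2.18% of all genes. The median difference of the members was 0.024, and that of all genes was 0.0039. Inulin minus control was above 0 in 6 of the 9 members and in 51.4% of all genes.

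**Figure D1:**
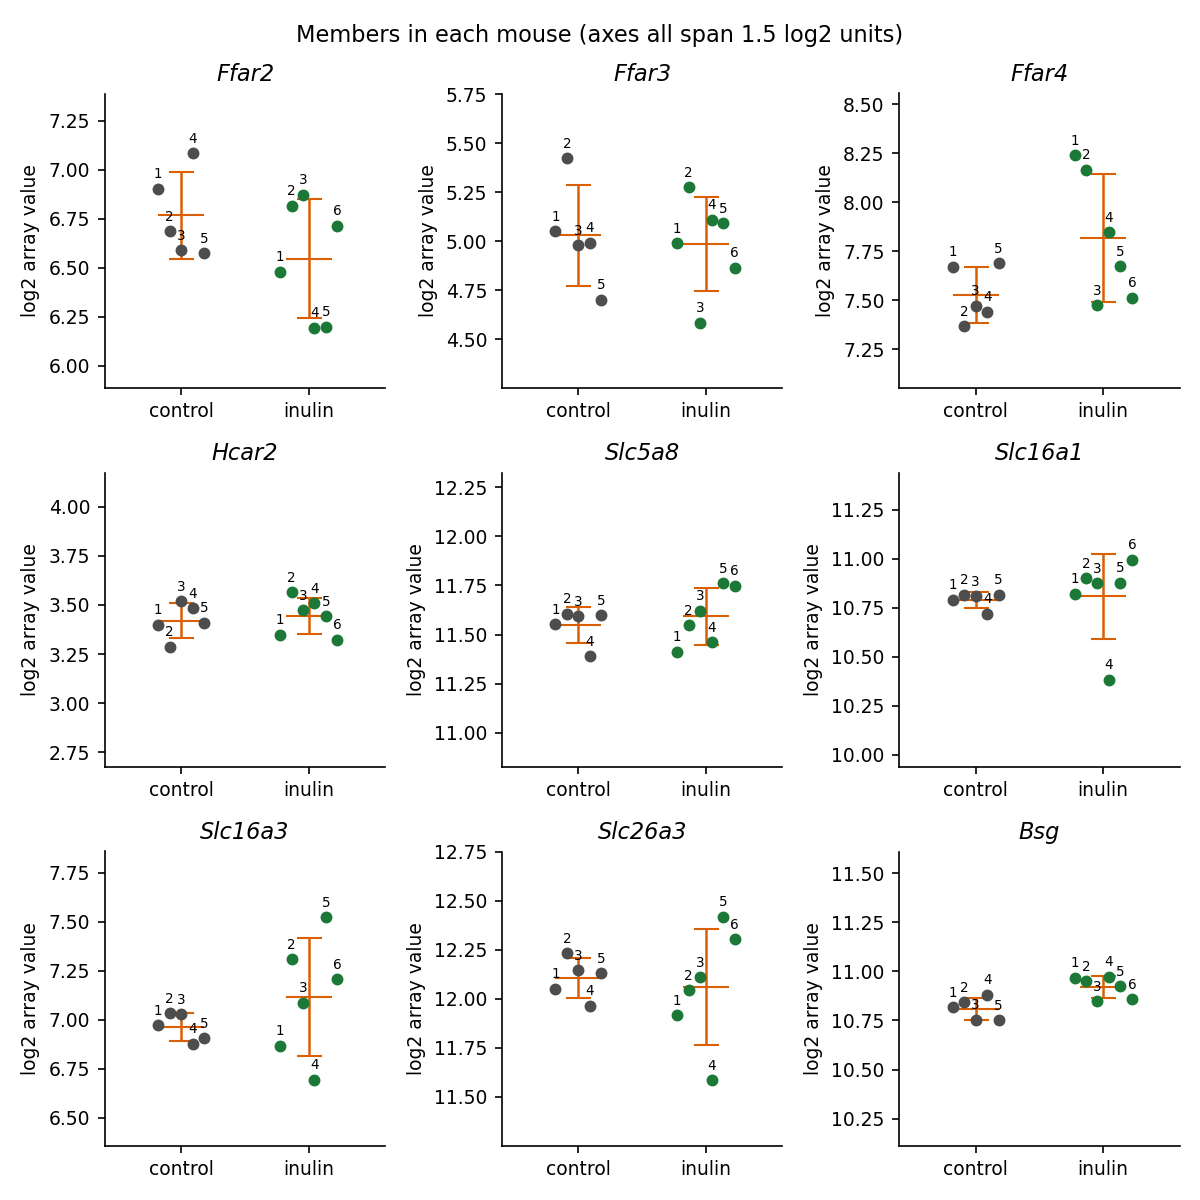
Log2 array value (vertical axis) of each member in each mouse, by diet, with the replicate number of the mouse beside its point; the orange bars are the mean and SD of 5 control and 6 inulin mice, and every vertical axis spans the same width. The diets overlap in every panel, the transporters spread more widely in inulin mice than in control mice, and inulin 4 is lowest for Slc16a1, Slc16a3 and Slc26a3.

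Among the receptors, Ffar4 (GPR120), which binds long-chain rather than short-chain fatty acids, had the largest difference of all members. In control mice 1 to 5 it was at 7.67, 7.37, 7.47, 7.44 and 7.69. In inulin mice 1 to 6 it was at 8.24, 8.17, 7.47, 7.85, 7.67 and 7.51. Inulin 1 and 2 stood above the rest and inulin 4 above every control, while inulin 3, 5 and 6 lay within the control range. The mean went from 7.53 ± 0.14 (SD, n = 5) to 7.82 ± 0.33 (SD, n = 6), a difference of 0.29 ± 0.14 (SE). The fold was 1.22, its 95% interval 0.994 to 1.51, and Ffar4 was not called (limma adjusted p 0.39; two-sided exact permutation p 0.10).

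Ffar2 (GPR43), the receptor of acetate and propionate on enteroendocrine and immune cells, was at 6.90, 6.68, 6.59, 7.08 and 6.57 in control mice 1 to 5. Under inulin it was at 6.48, 6.82, 6.87, 6.19, 6.20 and 6.71 in mice 1 to 6. Inulin 1, 4 and 5 lay below every control, and none lay above the control range. The difference was -0.22 ± 0.14 (SE), 0.858-fold with an interval from 0.693 to 1.06 (limma adjusted p 0.53; exact permutation p 0.21). It was -0.142 without control 4. Of the 16 marker lists, the smooth muscle markers had the strongest relation with Ffar2, at r = -0.802 (permutation p 0.0028, adjusted over 144 relations 0.083) and rho = -0.727 (p 0.014, adjusted p 0.19). That r was -0.587 without inulin 4 and 5. The fat cell markers, highest in inulin 4 and 5 (7.78 and 8.17), had r = -0.607 with Ffar2 (permutation p 0.047, adjusted p 0.38) and rho = -0.345 (p 0.30, adjusted p 0.65), and r = 0.254 without those mice. When the fat and pancreas marker levels entered the fit, the Ffar2 difference was -0.0094 ± 0.19 (SE, limma adjusted p 0.99). With the same covariates the differences were 0.39 for Ffar4, -0.092 for Ffar3, -0.066 for Hcar2 and 0.095 for Bsg. Those of the transporters were 0.15 for Slc16a1, 0.084 for Slc16a3, 0.029 for Slc5a8 and -0.014 for Slc26a3. None of these passed (limma adjusted p 0.42 to 0.98). Both marker levels were themselves higher on average under inulin, so their part and that of the diet cannot be fully told apart.

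Ffar3 (GPR41), the receptor of propionate and butyrate, is the next protein-coding gene to Ffar2 on chromosome 7. It was at 5.05, 5.42, 4.98, 4.99 and 4.70 in control mice 1 to 5 and at 4.99, 5.27, 4.58, 5.11, 5.09 and 4.87 in inulin mice 1 to 6. Inulin 3 was lowest and control 2 highest, and the other mice of both diets were interspersed. The difference was -0.04 ± 0.13 (SE), and the 95% interval of the fold, 0.796 to 1.18, held both a fall and a rise (limma adjusted p 0.92). Across the 11 mice the levels of Ffar2 and Ffar3 had a Pearson r of -0.145 and a rho of -0.145 (permutation p 0.67 for each; adjusted over 36 pairs 0.93 and 0.91). Hcar2 (GPR109A), which binds butyrate and niacin, lay between 3.29 and 3.56 in every mouse, below the lower quartile of all probe sets (3.77). The Hcar2 difference of 0.02 ± 0.061 (SE; limma adjusted p 0.90) is of that low signal.

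**Figure D2:**
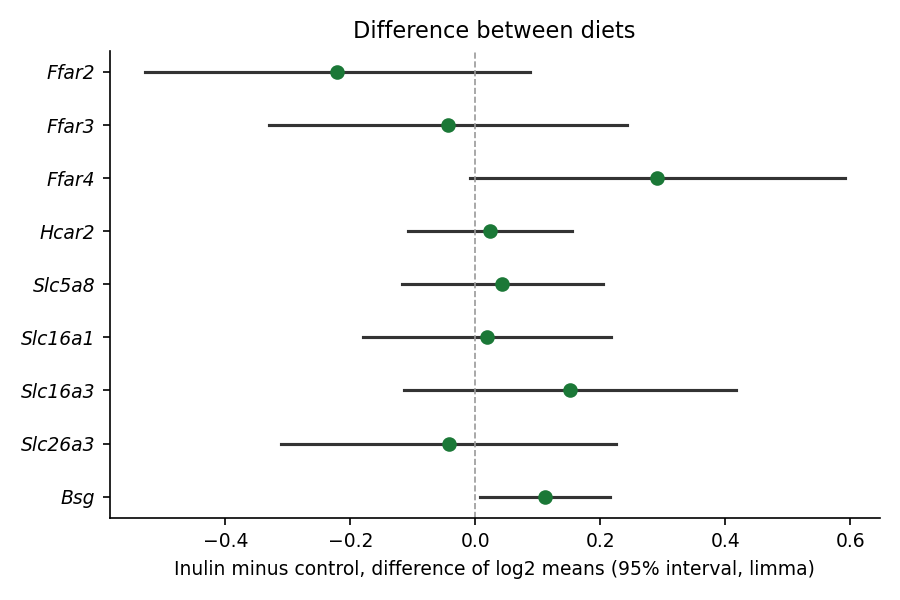
Difference of log2 means, inulin minus control (horizontal axis), for each member with its 95% interval from limma; 0 is the dashed line. The interval of Bsg runs from 0.0072 to 0.22, those of the other 8 members include 0, and none of the 9 passed after adjustment over all genes.

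Of the transporters, Slc5a8, Slc16a1 and Slc26a3 lay above the upper quartile of all probe sets in every mouse, and Slc16a3 below it. Slc5a8 (SMCT1) brings monocarboxylates in with sodium at the luminal membrane, Slc16a1 (MCT1) carries them with protons, Slc16a3 (MCT4) is a lactate exporter of glycolytic cells, and Slc26a3 (DRA) exchanges luminal chloride for bicarbonate. Their promoters are shown because the levels of these 4 genes were positively correlated across the mice, as described further on. Each run is the 250 bases before a start site in RefSeq's GRCm38.p6 annotation, 5′ to 3′ on the strand of the gene. For Slc16a3 and Slc26a3 that start lies inside the outer bounds of the gene, downstream of an earlier start. Windows were found for 7 of the 9 members.
Slc5a8, chr10:88885742-88885991, plus strand: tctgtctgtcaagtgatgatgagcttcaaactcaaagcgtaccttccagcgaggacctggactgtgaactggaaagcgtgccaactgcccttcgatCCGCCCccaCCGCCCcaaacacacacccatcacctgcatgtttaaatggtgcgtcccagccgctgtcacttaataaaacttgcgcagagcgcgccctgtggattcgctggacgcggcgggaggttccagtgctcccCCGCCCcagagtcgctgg
Slc16a1, chr3:104638414-104638663, plus strand: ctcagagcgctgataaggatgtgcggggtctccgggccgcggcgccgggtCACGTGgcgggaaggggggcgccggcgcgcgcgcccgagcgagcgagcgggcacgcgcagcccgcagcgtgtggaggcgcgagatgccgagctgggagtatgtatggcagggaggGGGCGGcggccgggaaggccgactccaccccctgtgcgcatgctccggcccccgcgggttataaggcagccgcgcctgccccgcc
Slc16a3, chr11:120948817-120949066, plus strand: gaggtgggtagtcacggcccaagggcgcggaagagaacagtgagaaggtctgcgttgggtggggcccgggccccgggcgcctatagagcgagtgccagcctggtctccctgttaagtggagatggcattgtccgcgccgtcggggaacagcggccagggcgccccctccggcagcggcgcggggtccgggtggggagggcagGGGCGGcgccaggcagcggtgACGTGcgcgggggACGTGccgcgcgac
Slc26a3, chr12:31437969-31438218, plus strand: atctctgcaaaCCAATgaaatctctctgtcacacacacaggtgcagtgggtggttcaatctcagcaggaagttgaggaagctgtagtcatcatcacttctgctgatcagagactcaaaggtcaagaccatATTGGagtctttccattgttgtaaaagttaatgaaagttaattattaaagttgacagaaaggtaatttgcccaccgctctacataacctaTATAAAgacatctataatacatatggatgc

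Capitals mark matches, on either strand, to 5 short motifs: TATAAA (the TATA box), CCAAT (the CCAAT box), GGGCGG (the GC box), ACGTG (the core of a hypoxia response element) and TTTATG (a core bound by caudal homeobox factors). TTTATG matched in 0 of the 4 windows and in 10.8% of all windows. A GC box stood in Slc5a8 (3 matches), Slc16a1 (1) and Slc16a3 (1) and in 32.7% of all 32851 promoter windows of that length. ACGTG matched in Slc16a1, as a CACGTG read on both strands, and 2 times in Slc16a3, against 16.6% of all windows. Slc26a3 had a TATA box 30 bases before the start (12.4% of all windows) and 2 CCAAT boxes (33.8%). Its window was 38.8% G and C, against 58.8% in Slc5a8, 76.4% in Slc16a1 and 73.6% in Slc16a3, and a median of 52.4% over all windows. None of the 5 motifs was shared by all 4 genes. A match in these letters is a description and shows no binding.

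Slc5a8 was at 11.55, 11.61, 11.59, 11.39 and 11.60 in control mice 1 to 5 and at 11.41, 11.55, 11.62, 11.46, 11.76 and 11.75 in inulin mice 1 to 6. Control 4 was lowest of all, and inulin 5 and 6 were highest. The difference of 0.04 ± 0.074 (SE) left a fold between 0.922 and 1.15 (limma adjusted p 0.85).

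Slc16a1 was the most even gene of the control mice among the members, at 10.79, 10.82, 10.81, 10.72 and 10.82. The inulin mice were at 10.82, 10.90, 10.88, 10.38, 10.88 and 10.995. All inulin mice but inulin 4 lay above every control, and inulin 4 lay below every control. The means were 10.79 ± 0.041 (SD, n = 5) and 10.81 ± 0.22 (SD, n = 6), and the 95% interval of the fold was 0.883 to 1.16 (limma adjusted p 0.95). Without inulin 4 the Slc16a1 difference was 0.104 (limma adjusted p 0.41).

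Slc16a3 ran from 6.88 to 7.03 in control mice. Under inulin it was at 6.87, 7.31, 7.09, 6.69, 7.52 and 7.21, so 4 inulin mice lay above the control range and 2 below it. The difference was 0.15 ± 0.12 (SE), 1.11-fold with an interval from 0.924 to 1.33 (limma adjusted p 0.63). Slc26a3 was at 12.05, 12.23, 12.15, 11.97 and 12.13 in control and at 11.92, 12.04, 12.11, 11.58, 12.42 and 12.30 in inulin mice. Again inulin 4 was lowest and inulin 5 highest. The Slc26a3 difference of -0.04 ± 0.12 (SE; limma adjusted p 0.92) became 0.053 without inulin 4 and 0.18 with Hoxb13 and Hoxa13, which mark the distal end, as a covariate. In neither case did it pass (limma adjusted p 0.86 and 0.38). The same covariate moved Slc16a1 from 0.02 to 0.17, Slc16a3 from 0.15 to 0.31 and Slc5a8 from 0.04 to 0.15 (unadjusted limma p 0.033, 0.019 and 0.033; adjusted p 0.35, 0.30 and 0.35). It moved the receptor Ffar4 the other way, from 0.29 to 0.16 (limma adjusted p 0.71), and Ffar3 from -0.04 to -0.16 (limma adjusted p 0.72). Hoxb13 and Hoxa13 were themselves lower on average under inulin, so the part of this covariate and that of the diet cannot be fully told apart. Single mice also moved the smaller differences. Slc16a3 was 0.235 without inulin 4 and 0.069 without inulin 5. Slc5a8 was 0.079 and 0.070 when inulin 1 or inulin 4 was left out, and 0.0094, 0.012 and 0.0038 when inulin 5, inulin 6 or control 4 was.

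Bsg (basigin or CD147) is the chaperone that takes MCT1 and MCT4 to the cell surface. It was at 10.82, 10.84, 10.75, 10.88 and 10.75 in control mice and at 10.97, 10.95, 10.85, 10.97, 10.93 and 10.86 in inulin mice. Inulin 1, 2, 4 and 5 lay above every control, and inulin 3 and 6 lay within the control range. The difference was 0.11 ± 0.048 (SE), 1.08-fold with an interval from 1.00 to 1.16. The exact permutation p was 0.017, but after adjustment over all genes Bsg did not pass (limma p 0.038, adjusted p 0.34).

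The spread among mice was compared after the values had been seen, and is a description. The SD among inulin mice was 5.26 times that among control mice for Slc16a1, 4.27 times for Slc16a3 and 2.92 times for Slc26a3, whereas the median ratio over all genes was 1.30. Inulin mice had the wider spread in 7 of 9 members and in 67.7% of all genes. A ratio as high was reached by 1.40%, 2.76% and 8.65% of all genes. Without inulin 4 the ratios were 1.55, 3.47 and 1.99. Slc5a8 had a ratio of 1.61 and the receptor Ffar4 one of 2.27, while Ffar3 and Bsg were slightly narrower under inulin (0.926 and 0.959). These ratios were not tested.

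Slc5a8, Slc16a1, Slc16a3 and Slc26a3 were positively correlated with one another across the mice. All 6 pairs among them had a Pearson r between 0.592 and 0.836 over the 11 mice. The 4 genes did not lie on the same side of their means in every mouse. In inulin 2, Slc16a3 and Slc16a1 lay 0.264 and 0.099 above their means, while Slc5a8 and Slc26a3 were at -0.025 and -0.039 from theirs. Slc26a3 correlated with Slc16a1 at r = 0.836 (permutation p 0.0050), with Slc5a8 at 0.823 (p 0.0014) and with Slc16a3 at 0.794 (p 0.0042). Spearman's rho for these 3 pairs was 0.527 (permutation p 0.10), 0.900 (p 0.00043) and 0.736 (p 0.013). Over the 36 pairs of members, the adjusted p of r was 0.060, 0.0504 and 0.060, short of the threshold, and that of rho was 0.51, 0.016 and 0.11. The pair Slc5a8 and Slc26a3 was the only one to pass by rank, and 0 of 36 passed by Pearson's r.

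**Figure D3:**
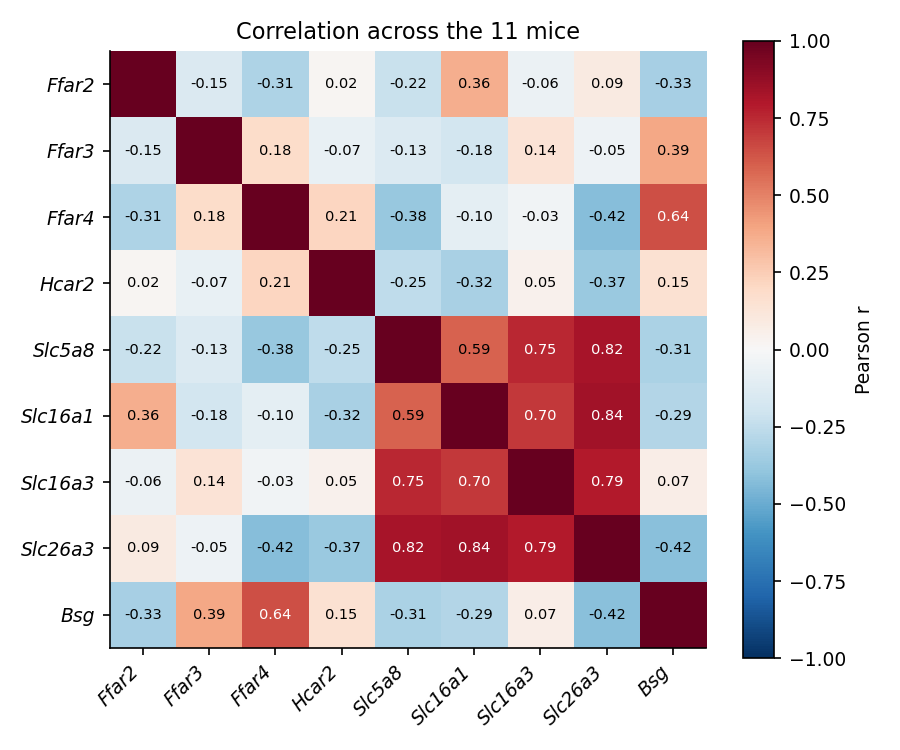
Pearson r over the 11 mice for each pair of members, coloured from -1 (blue) to 1 (red). Slc5a8, Slc16a1, Slc16a3 and Slc26a3 form a block of high values, from 0.592 to 0.836, while the r of a receptor with these 4 genes runs from -0.424 to 0.364.

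How much these correlations rest on single mice differed between the pairs. Without inulin 4 and 5, the mice farthest from the median of Slc16a3, its r with Slc26a3 was 0.476. Without inulin 4 and 6, the r of Slc16a1 with Slc26a3 was 0.427. The high r of both pairs therefore depends on those mice. Leaving out the farthest mice also narrows the range of the gene, which can itself lower r. Without control 4 and inulin 1, the mice farthest from the median of Slc5a8, its r with Slc26a3 was 0.896. Inulin 4 and 5, the farthest for Slc26a3, stayed in there, so this r cannot be set against the 2 before it. Without inulin 4 alone the r of Slc5a8 with Slc26a3 was 0.940 (adjusted p 0.0025). Without inulin 5 or inulin 6 alone it was 0.760 and 0.802 (adjusted p 0.12 and 0.11). The r of Slc16a1 with Slc26a3 fell to 0.557 without inulin 4 alone (adjusted p 0.43). Within the 6 inulin mice, the r of Slc26a3 with Slc5a8, Slc16a3 and Slc16a1 was 0.882, 0.899 and 0.854 (exact permutation p 0.019, 0.021 and 0.032). The 5 control mice are too few for a correlation of their own. With the diet means removed, the r of these pairs was 0.862, 0.886 and 0.849.

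**Figure D4:**
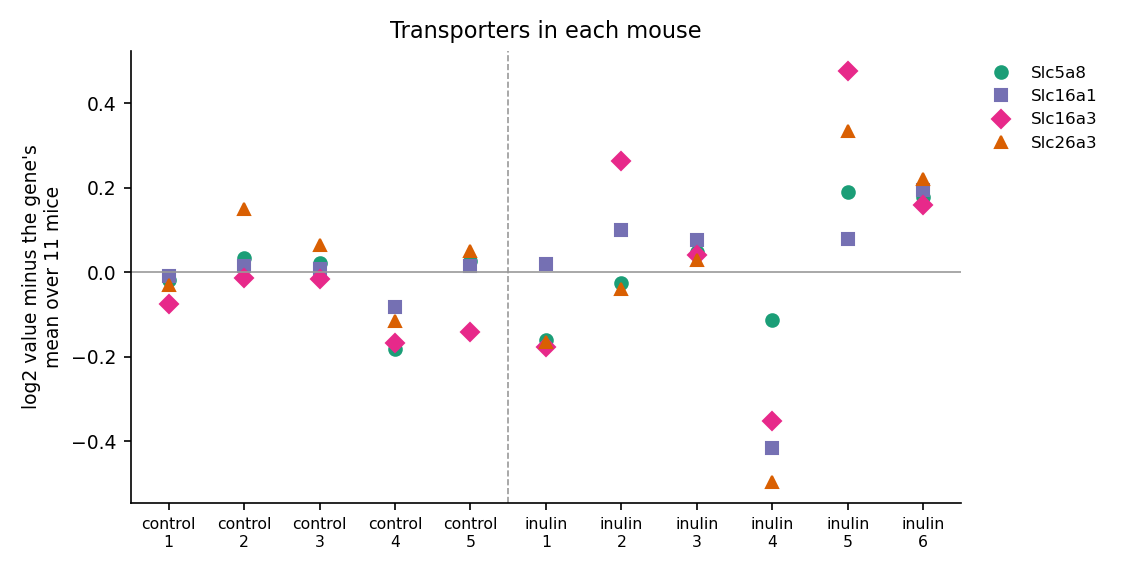
Log2 value of the 4 transporters in each mouse minus the mean of that gene over the 11 mice (vertical axis), with control mice left of the dashed line. Inulin 4 and control 4 lie below 0 for all 4 genes, and inulin 5 and 6 lie above 0 for all 4.

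Against all genes, the r of Slc16a1 with Slc26a3 was above that of Slc16a1 with 99.8% of all genes, and above that of Slc26a3 with 99.5% of all genes. The genes most like each transporter were not members. After removal of the diet means, and among 9863 named genes at or above the median level, Slc26a3 was closest to Smim31 (r = 0.973), Tnip1 (0.966) and Hif1a (0.959), the last the oxygen-sensitive subunit of the hypoxia-inducible factor. Slc5a8 was closest to Hif1a (0.959), Eef2k (0.932) and Tbc1d2b (0.927). Slc16a1 was closest to the glutamine synthetase gene Glul (0.966), Serinc5 (0.962) and Klhl28 (0.956), and Slc16a3 to Ppm1j (0.949), Spop (0.946) and Stk10 (0.943). None of these 11 genes passed between the diets in limma.

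The mean of the colonocyte markers had a Pearson r of 0.257 with Slc26a3, 0.261 with Slc5a8, 0.183 with Slc16a1 and 0.617 with Slc16a3 (permutation p 0.44, 0.44, 0.54 and 0.044). The rho was 0.100, 0.191, 0.736 and 0.509. Over the 144 relations of 9 members with 16 marker lists, none of these 4 passed (adjusted p of r 0.69, 0.69, 0.71 and 0.38). By rank, Slc26a3 and Slc5a8 passed with the neutrophil markers (rho 0.918 and 0.864, adjusted p 0.017 and 0.035; r 0.807 and 0.808, adjusted p 0.083 for each). That list ran only from 3.54 to 3.73 over all mice, with 4 of its 9 measured genes below the lower quartile of all probe sets.

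Bsg accompanies MCT1 and MCT4 to the membrane. Its r was -0.294 with Slc16a1 and 0.0696 with Slc16a3, neither of which passed (adjusted p 0.82 and 0.95). Among the 16 marker lists its strongest relation was with the homeobox genes of the distal colon, at r = -0.904 (permutation p 0.00024, adjusted over 144 relations 0.035) and rho = -0.973 (p 1e-05, the smallest 100000 permutations can give; adjusted p 0.0014). It was the only relation of the 144 to pass by r. The r was -0.861 without inulin 1 and 4, the mice farthest from the median of Bsg. With the diet means removed it was -0.773, and within the 6 inulin mice it was -0.694 (exact permutation p 0.056). The relation no longer passed when control 3, 4 or 5 or inulin 4 or 6 was left out (adjusted p 0.063, 0.063, 0.099, 0.091 and 0.069), with r between -0.905 and -0.871. Bsg also passed by rank with the fat cell markers (rho 0.873, adjusted p 0.032) and the endothelial markers (rho 0.891, adjusted p 0.026). By Pearson's r neither passed (r 0.731 and 0.726, adjusted p 0.20 for each). With the diet means removed these r were 0.498 and 0.525. With the Hoxb13 and Hoxa13 level in the fit, the Bsg difference was 0.0655 (limma adjusted p 0.65). Bsg was most like Grpel2 (r = 0.969 with the diet means removed), Trim38 (0.940) and Abca12 (0.931). For Trim38 the r over the 11 mice without that removal was 0.023.

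Among the receptors, Ffar4 had an r of 0.641 with Bsg (permutation p 0.033, adjusted p 0.20) and a rho of 0.536 (p 0.094, adjusted p 0.51). It was 0.844 within the 6 inulin mice (exact permutation p 0.057) and 0.367 without inulin 1 and 2. Ffar3 had an r of 0.389 with Bsg (permutation p 0.24, adjusted p 0.77) and a rho of 0.427 (p 0.19, adjusted p 0.63). With the diet means removed the r of Ffar3 with Bsg was 0.687, and within the 6 inulin mice it was 0.800 (exact permutation p 0.043). Ffar2 was most like Afap1l1 (r = 0.926 with the diet means removed), Sardh (0.919) and Pi4k2b (0.918), and Ffar3 most like Invs (0.905), Rimkla (0.899) and Clec16a (0.898). Ffar4 was most like the peroxisomal transporter gene Abcd3 (0.954), Angptl4 (0.930) and Timm13 (0.930). These are the nearest of 9863 genes over 11 mice and carry no test.

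Angptl4, the lipoprotein lipase inhibitor named in the title of the series, was at 6.71, 6.49, 6.78, 6.44 and 6.58 in control mice 1 to 5. In inulin mice 1 to 6 it was at 8.11, 8.02, 6.11, 6.75, 6.59 and 6.04. The same 2 mice, inulin 1 and 2, stood above all others for Angptl4 and for Ffar4. Inulin 1 and 2 also stood apart for Pdk4, an inhibitor of pyruvate oxidation, at 10.20 and 10.02 against 8.05 to 8.87 in the other 9 mice. Inulin 1 and 2 held the highest values in 1 of 9 members and in 2.44% of all genes.

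The relation of each member with Angptl4 and Pdk4 was computed after the values of Ffar4 had been seen, in a family of 18. Ffar4 with Angptl4 had r = 0.901 (permutation p 0.0017, adjusted p 0.023) and rho = 0.645 (p 0.036, adjusted p 0.22). Ffar4 with Pdk4 had r = 0.888 (permutation p 0.0026, adjusted p 0.023) and rho = 0.564 (p 0.076, adjusted p 0.23). Without inulin 1 and 2, r was 0.471 with Angptl4 and 0.383 with Pdk4, so the high r of both relations depends on those mice. Leaving them out also narrows the range of Ffar4, which can itself lower r.

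**Figure D5:**
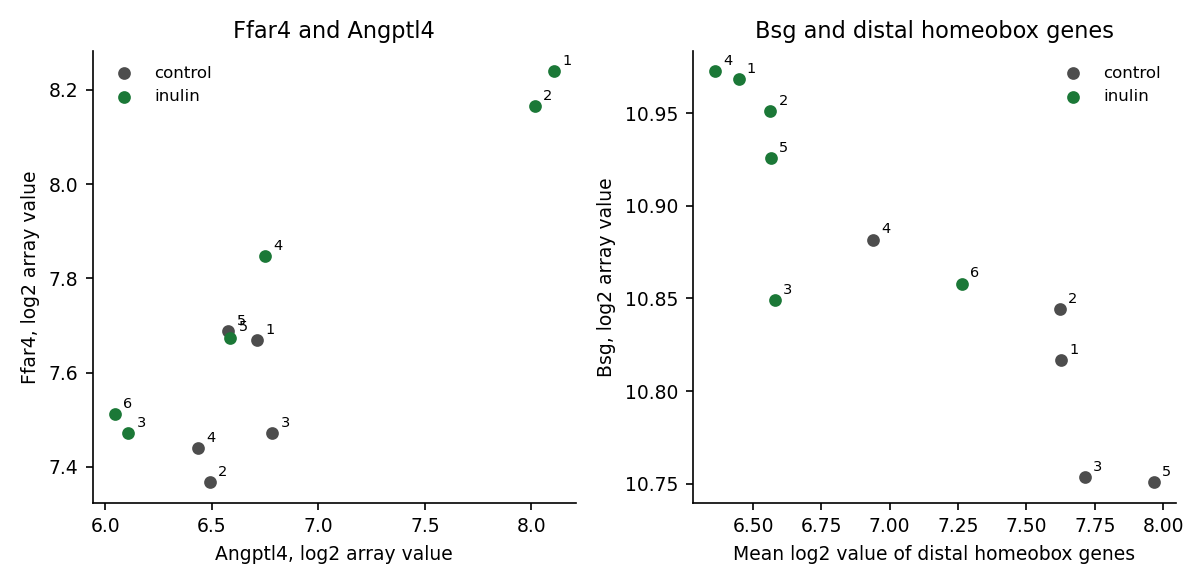
Left, Ffar4 against Angptl4; right, Bsg against the mean of the distal homeobox genes (all axes in log2 array values), with 1 point per mouse, coloured by diet. Inulin 1 and 2 lie alone at the upper right for Ffar4. For Bsg the diets lie largely apart on the homeobox axis, control mice at 6.94 to 7.97 and inulin mice at 6.36 to 7.26. Its r of -0.904 was -0.773 with the diet means removed (permutation, adjusted p 0.081).

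Beyond the members, lists of related genes, taken up with earlier results of these data known, held 64 measured genes, of which 1 was called higher and 0 lower. At an unadjusted p under 0.05 there were 17 (26.6%), against 13.5% of all genes. The gene called higher was Cck, the hormone cholecystokinin of enteroendocrine cells, which ran from 4.29 to 4.59 in control and from 4.82 to 5.33 in inulin mice. Its difference of 0.61 ± 0.091 (SE) was 1.53-fold (limma adjusted p 0.025). Of 7 hormone genes measured, 4 had an unadjusted p under 0.05. The other 3 of these, named after their values were seen, were Nts (neurotensin), Gcg (proglucagon) and Sst (somatostatin). They differed by 0.83 ± 0.22, 0.54 ± 0.17 and 0.32 ± 0.12 (SE; limma adjusted p 0.16, 0.21 and 0.27). The remaining hormone genes, Pyy, Tph1 and Insl5, differed by -0.048, -0.046 and -0.0097 (limma adjusted p 0.87, 0.91 and 0.99). Of the 13 enteroendocrine marker genes measured, 5 were higher on average under inulin. Among 18 monocarboxylate transporter genes and chaperones, 4 of them members, 0 were called. An unadjusted p under 0.05 was found for 5, the member Bsg among them. The carrier gene Slc16a5 ran from 9.68 to 9.88 in control and from 9.93 to 10.24 in inulin mice without overlap, yet did not pass (difference 0.29 ± 0.063 SE; limma adjusted p 0.087). Slc16a9, which carries carnitine, differed by 0.34 ± 0.093 (SE; limma adjusted p 0.16). Slc16a12 and Slc16a13 differed the other way, by -0.53 ± 0.17 and -0.19 ± 0.056 (SE, limma adjusted p 0.22 and 0.19). Of the 18 genes, 10 were higher and 8 lower on average under inulin.

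Among 15 exchangers of the colonic surface and their partners, the member Slc26a3 included, 0 were called and 3 had an unadjusted p under 0.05. Slc9a3, the sodium and proton exchanger that works alongside Slc26a3 in salt uptake, differed by 0.48 ± 0.13 (SE; limma adjusted p 0.16), and its scaffold gene Slc9a3r1 by 0.27 ± 0.075 (SE; limma adjusted p 0.17). Of 12 signalling partners of the receptors, 0 were called and 2 had an unadjusted p under 0.05. The inhibitory G protein gene Gnai3 differed by 0.20 ± 0.062 (SE; limma adjusted p 0.19) and the phospholipase gene Plcb3 by -0.15 ± 0.058 (SE; limma adjusted p 0.30). Of 11 genes for the first steps of short-chain fatty acid use, 0 were called and 4 had an unadjusted p under 0.05. Acads, the short-chain acyl-CoA dehydrogenase, differed by 0.20 ± 0.074 (SE; limma adjusted p 0.26), and Echs1, the enoyl-CoA hydratase of the same pathway, by 0.13 ± 0.048 (SE; limma adjusted p 0.27). Of 10 fatty acid and hydroxy acid receptors measured, 4 of them members, 0 were called and 0 had an unadjusted p under 0.05. Gpr35, outside the members, differed by -0.12 ± 0.064 (SE; limma adjusted p 0.44).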

How the data were processed

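Colon mucosa RNA of 11 mice was measured on 1 expression array each. The authors deposited 1 table of 35556 probe sets with log2 values, and the submitters' processing notes name RMA (background correction, quantile normalization and probe summary); its version, the genome build and the probe set definition were not given in the sources used here. Array medians ran from 5.38 to 5.46. The number of arrays limits the precision.

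A probe set was named where GEO's platform annotation gave it 1 gene symbol (21218; 1881 had several and 12457 none); 21185 had an Entrez ID found in RefSeq's GRCm38.p6 tables. Each of 18820 genes was represented by its brightest probe set, by mean over all arrays. No filter on low values was used, so all 9 members were tested.

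Diets were compared with limma 3.58.1 (R 4.3.3; lmFit and eBayes, inulin minus control, no covariate, tested on simulated data), adjusted by Benjamini-Hochberg over all genes, with a threshold of 0.05. Single members also had a two-sided exact permutation test over mice. Correlations used 100000 permutations (SciPy 1.17.1), adjusted within each stated family. Nothing in the labels names cages or batches, so a cage or batch difference that followed the diets could not be told apart from diet. The p-values measure only the spread between these mice.

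The members and all gene and marker lists were chosen with earlier results of these data known. Besides the members, the text names, of each wider list, the genes past the threshold or else the 2 with the smallest p. After their values were seen, it also names the other hormone genes, and Slc16a12 and Slc16a13 of the monocarboxylate list. It also names the 3 genes most like each member, after removal of the diet means, among genes at or above the median level. Gene models and small RNAs were left out, and the pattern that removes them was corrected after its first output; the 3 genes of each member did not change. Older symbols in the lists were matched through RefSeq synonyms, also after the first output. Angptl4 and Pdk4 were added after the values of Ffar4 were seen. Alternatives covered the variance prior, array weights, a filter, scaling, covariates, a replicate block and leaving out mice.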

Additional observations from a re-analysis of the deposited data

Results flagged for a closer look

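In 3 of 18 groups of member values, 1 mouse lay far from the others of its diet, by the gap to its nearest neighbour over the whole range of the group. Chance gives this in about 1 in 20 groups. The groups share the same mice, and some of the genes varied together. The 3 flags are therefore not independent, and no excess over chance is read from them. For Slc16a1, control 4 was lowest of the control mice at 10.72, and inulin 4 was lowest of the inulin mice at 10.38. For Slc5a8, control 4 was lowest of the control mice at 11.39. Control 4 and inulin 4 also had the lowest homeobox level of their diets (6.94 and 6.36); the part of this in their transporter values was not tested.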

How the results depend on the processing

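No member passed the threshold under any of the 23 alternatives (22 for Hcar2, which the filter on low probe sets removed), and Ffar2, Ffar4, Slc16a3, Slc5a8 and Bsg kept their direction in all 23. Some differences turned sign. Without inulin 3, 4 and 5, Ffar3 was 0.014 and Hcar2 -0.0080. With fat and pancreas markers as covariates Hcar2 was -0.066. With the Hoxb13 and Hoxa13 level in the fit, Hcar2 was -0.019 and Slc26a3 0.18. Slc16a1 was -0.011 under quantile normalization and -0.018 with a replicate block. Inulin 6 has no control of its number, so the block also takes it out of the comparison; the differences with the block equal those without inulin 6. Omitting single mice gave -0.13 to 0.055 for Ffar3, -0.0091 to 0.049 for Hcar2, -0.018 to 0.10 for Slc16a1, -0.11 to 0.053 for Slc26a3, 0.069 to 0.235 for Slc16a3, 0.0038 to 0.079 for Slc5a8, -0.286 to -0.142 for Ffar2, 0.207 to 0.360 for Ffar4 and 0.097 to 0.129 for Bsg. The count of all genes called was 42 with a trended variance prior, 245 with array weights, 47 with the filter, 62 with arrays centred on their medians, 33 without inulin 3, 4 and 5, 0 with the unmoderated test and 7 to 98 leaving out each mouse. With the replicate block it was 95, against 50 without inulin 6 alone; same-numbered mice had correlations of their deviations of 0.063, 0.076, 0.15, 0.22 and -0.10, so the numbers were not taken to pair them. The r of Slc26a3 with Slc16a1 passed under quantile normalization (0.868) and with diet means removed (0.849), that with Slc5a8 likewise (0.830 and 0.862), and that with Slc16a3 with diet means removed (0.886). All 3 also passed without inulin 2 (adjusted p 0.029 each), and that with Slc5a8 without control 4 (0.043) or inulin 4 (0.0025). Leaving out each mouse gave 0.557 to 0.884, 0.760 to 0.940 and 0.712 to 0.883. The r of Bsg with the homeobox level no longer passed with centred arrays (-0.870) or diet means removed (-0.773), and ran from -0.967 to -0.871 leaving out each mouse; these alternatives, and those for Ffar4 with Angptl4, were chosen after seeing the data. Ffar4 with Angptl4 ran from 0.834 to 0.930 leaving out each mouse and did not pass without inulin 1, 2 or 4 (adjusted p 0.082, 0.12 and 0.077). The cause of these changes was not tested.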
